A study of Mus musculus with 14 samples.

Results

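The genes analysed here encode the proteasome. They were the protein-coding genes of the mouse whose symbol begins with Psm, a letter from a to g and a number, which gave 50 of the 21755 protein-coding genes on chromosomes 1 to 19 and X. Of these, 14 encode the constitutive 20S core, 17 the 19S regulatory particle and 4 core subunits typical of immune cells, thymus or interferon-treated cells. Another 1 encodes a core subunit of the testis, 7 encode assembly factors, and 5 encode activators or an inhibitor of the core. The symbols of the remaining 2 only resemble those of subunits. Psmc3ip encodes a protein of meiotic recombination, and Psme2b is a copy of Psme2.

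Histone H3 acetylated at lysine 27 (H3K27ac), which is found at active promoters and enhancers, was profiled by ChIP-seq in immortalised mouse embryo fibroblasts (iMEF). In all samples the floxed endogenous Ash2l alleles had been inactivated by an inducible Cre-ER, and growth depended on a lentivirally introduced human ASH2L fused to an FKBP tag. The cells used for these libraries were of a single clone, NG3. Degradation of the fusion protein was triggered with dTAG (dTAG-13), a small molecule that links the tag to the Cereblon ubiquitin ligase and thereby delivers the protein to the proteasome. There were 2 H3K27ac libraries for untreated cells (labelled WT) and 2 for each of 30 min, 2 h, 4 h, 8 h and 16 h of dTAG, plus 1 input library each without dTAG and after 16 h. The values analysed are 122228 sites joined over all these samples, each with a position and a width and without a value per sample. Therefore no change with time was analysed, the depth behind a site was not known from the list, no value has a replicate error, and no test was run between classes of genes. Of 10 fibroblast markers, 8 had a promoter site (as defined below), the widest at Pdgfrb (4884 bp), and the transcription start sites of the other 2, Col1a1 and Prrx1, were inside sites whose middle was farther away. Of 10 markers of other cell types, Cdh5 (745 bp) had a promoter site, while Epcam, Cdh1, Ptprc, Pecam1, Pou5f1, Nanog, Sox2, Myod1 and Alb had none.

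The proteasome degrades proteins tagged with ubiquitin. Its 20S core is a barrel of stacked rings, with alpha subunits (Psma) that form the gate and beta subunits (Psmb) that include the proteolytic sites. The 19S particle caps the barrel, with ATPases (Psmc) that unfold substrates and non-ATPase subunits (Psmd) that bind and remove ubiquitin. In cells exposed to interferon-gamma the proteolytic subunits Psmb5, Psmb6 and Psmb7 are replaced in new particles by Psmb8, Psmb9 and Psmb10, which alters the peptides made for presentation by MHC class I.

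All 31 genes of the constitutive 20S core and 19S particle carried an H3K27ac site at a promoter, that is, a site whose middle was within 1 kb of a transcription start site (TSS). Of all 50 genes, 44 had a promoter site (88%, 95% Wilson interval 76.2 to 94.4%, which covers counting error only), with 70 sites in total. The share was 54.7% among all protein-coding genes and 80.4% among those with a CpG island (CGI) within 1 kb of a TSS, compared to 18.9% among those without. A CGI was called at 42 of the 50 genes (84%), compared to 58.3% of all protein-coding genes. Of the 42, 41 had a promoter site (97.6%), as did 3 of the 8 without a CGI (37.5%). The 6 genes without a promoter site were the immune subunits Psmb8, Psmb9 and Psmb11, the testis subunit Psma8, the assembly factor Psmd10 and the copy Psme2b. With a window of 2 or 3 kb the count was 45, since Psmb11 gained a site. It was 43 when only protein-coding transcripts or 1 TSS per gene were considered, since Psmd8 lost its site. No gene was close to the limit. Among genes with a site, the middle of the nearest site was at most 572 bp from a TSS (Psmd11), and the first gene outside was Psmb11 at 1620.5 bp.

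**Figure D1:**
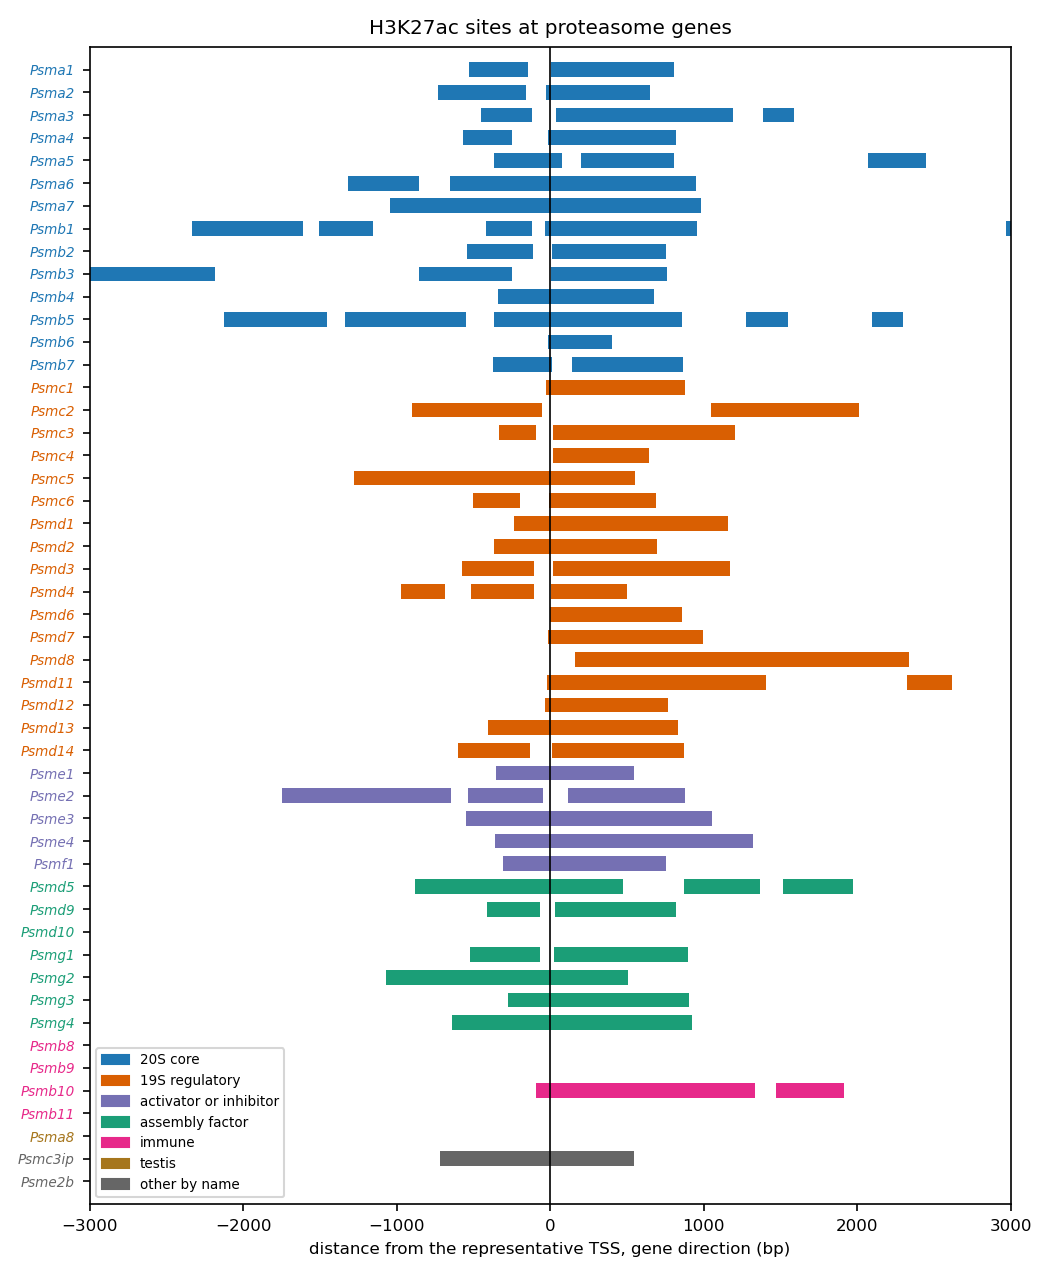
H3K27ac sites (bars) at the 50 genes, 1 gene per line, coloured by class, against the distance in bp from the representative TSS (vertical line) in the direction of the gene. Bars begin close to the line in most core and 19S genes and extend downstream, while the lines of Psmb8, Psmb9, Psmb11, Psma8, Psmd10 and Psme2b are empty.

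All 7 alpha ring genes and all 7 beta ring genes of the core had a promoter site. Core genes mostly had more than 1 site. In 11 of 14 there were 2 or more, compared to 6 of 17 genes of the 19S particle and 53.6% of protein-coding genes with a CGI and a site. The widest site of each core gene had a median of 818 bp (quartiles 729 and 1121 bp, range 419 to 2027 bp). The median was 1204 bp (quartiles 820 and 1726 bp) over the 10195 protein-coding genes with a CGI and a site. The core median was thus close to the lower quartile of these genes. When sites less than 1 kb apart were merged, it was 1387 bp, compared to 1685 bp over protein-coding genes with a CGI and a site. The alpha and beta rings had medians of 833 and 753 bp.

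In the alpha ring, whose subunits form the gate, the widest sites of Psma1, Psma2, Psma4 and Psma5 were between 608 and 833 bp, and that of Psma3 was 1155 bp. In the beta ring, Psmb2, Psmb3 and Psmb7 had between 725 and 753 bp, and Psmb1, Psmb4 and Psmb5 had 992, 1019 and 1223 bp. All of these were narrower than the upper quartile of protein-coding genes with a CGI and a site. Psmb1 had 4 promoter sites, the highest number among the 50 genes. A site of 992 bp was located at the representative TSS, and sites of 352 and 727 bp farther upstream were shared with Tbp, which encodes the TATA-binding protein.

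The alpha subunit genes Psma7 and Psma6 had the widest sites of the core. The site of Psma7 (chromosome 2, 180041449 to 180043475, 2027 bp) extended from 1042 bp upstream to 984 bp downstream of the TSS. It was shared with Ss18l1, a gene transcribed in the opposite direction from a TSS 76 bp away. Psma7 also had the highest number of CpG dinucleotides of the 50 genes, with 128 within 500 bp of the TSS, compared to a median of 58 in the core. Psma6 had a site of 2004 bp at an upstream TSS (chromosome 12, 55383176 to 55385179) and another of 1608 bp (55398121 to 55399728) over the representative TSS. The first began at -15599 bp relative to that TSS and did not overlap a CGI.

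When the widest site of each gene was considered, Psmb6, Psmd4 and Psma5 had the narrowest among the 44 genes. Psmb6, the caspase-like proteolytic subunit, had a single site of 419 bp (chromosome 11, 70525373 to 70525791), which covered UTR and coding sequence. This width was at the 6.55th percentile of protein-coding genes with a site. Psmd4, a ubiquitin receptor of the 19S particle, had 3 sites of 502, 414 and 286 bp. No CGI was called at Psmb6 or Psmd4, the only constitutive core or 19S genes of this kind, although CpG dinucleotides near the TSS numbered 40 and 43. Psma5 had sites of 608 and 446 bp.

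All 6 ATPase genes and all 11 non-ATPase genes of the 19S particle had a promoter site, with median widths of 873.5 and 1062 bp. Over the 17 genes, the widest sites had a median of 1007 bp (quartiles 842 and 1240 bp, range 502 to 2178 bp). The values of core and 19S genes overlapped over most of their range, and the order of the medians depended on how sites were joined. With the merged sites the 19S median was 1240 bp, below the 1387 bp of the core. The widest site of all 50 genes was at Psmd8, a lid subunit (chromosome 7, 29178361 to 29180538, 2178 bp). It began 163 bp downstream of the representative TSS, and its middle was 1251.5 bp away, which is why it was counted only through an internal TSS. Psmc5, an ATPase gene, was next in the 19S particle with 1830 bp (chromosome 11, 106254875 to 106256704), shared with the divergent gene Ftsj3.

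Among the other ATPase genes, Psmc4 and Psmc6 had 626 and 699 bp, Psmc2 and Psmc1 had 842 and 905 bp, and Psmc3 had 1186 bp. The large scaffold subunits of the base are encoded by Psmd1 and Psmd2, with 1397 and 1062 bp. Among the lid genes, Psmd11 (1427 bp), Psmd13 (1240 bp) and Psmd3 (1155 bp) had wider sites than Psmd7 (1007 bp), Psmd6 (857 bp) and Psmd12 (799 bp). Psmd14, which encodes the deubiquitinase of the lid, had 863 bp. Apart from Psmd8 and Psmc5, no gene of the 19S particle exceeded the upper quartile of 1726 bp of protein-coding genes with a CGI and a site.

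**Figure D2:**
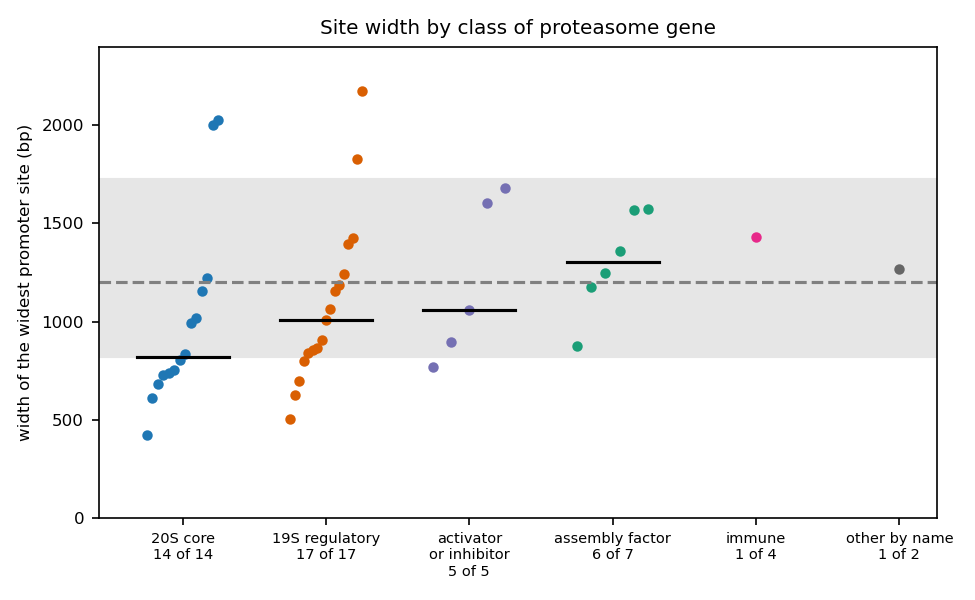
Width in bp of the widest promoter site of each gene (points) by class, with the number of genes with a site of all genes in the class. Black bars are class medians, the dashed line and grey band are the median (1204 bp) and quartiles (820 and 1726 bp) of protein-coding genes with a CGI and a site, and the core median of 818 bp is near the lower edge of the band.

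Among the activators, which open the core gate, and the inhibitor, 5 of 5 genes had a site. Psme1 and Psme2, whose products form the interferon-inducible PA28 activator, had widths of 898 and 766 bp. Psme3, of the nuclear form of PA28, and Psme4, which encodes PA200, had 1604 and 1681 bp. The inhibitor gene Psmf1 had 1061 bp. Thus both interferon-inducible activator genes had a promoter site, unlike Psmb8 and Psmb9. Both had fewer CpG dinucleotides near the TSS, with 33 and 37, than any of the 31 constitutive core and 19S genes, in which the lowest number was 40.

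Of 7 assembly factors, 6 had a site. The genes of the core chaperones were complete, with 875 bp at Psmg1, 1573 bp at Psmg2, 1175 bp at Psmg3 and 1570 bp at Psmg4. The median of the 6 genes was 1304 bp. Among the chaperones of the ATPase ring, Psmd5 had a site of 1358 bp. Psmd9 had 3 sites, of 1250 bp at an upstream TSS and of 341 and 787 bp on either side of the representative TSS. Psmd10, which encodes gankyrin, had no site.

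Psmd10 is located on the X chromosome (140948429 to 140956728, minus strand). The nearest sites were 249871 bp and 431044 bp from its TSS, and the stretch without a site measured 681 kb. It was among the longest 396 of 122151 gaps between neighbouring sites, although a gene without a site is more likely to fall in a long gap. The stretch included the TSSs of 4 protein-coding genes, Tex13b, Vsig1, Psmd10 and Atg4a, none with a CGI. Atg4a, an autophagy protease gene, is transcribed in the opposite direction, with 179 bp between the nearest divergent TSSs of both genes. Psmd10 had 28 CpG dinucleotides within 500 bp of the TSS.

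The immune subunits were then compared with the constitutive subunits they replace. Psmb5, of the chymotrypsin-like subunit, had sites of 1223 bp (chromosome 14, 54617164 to 54618386) and 790 bp. Its counterpart Psmb8 had none. Psmb6 had the site of 419 bp described above, while its counterpart Psmb9 had none. Psmb7, of the trypsin-like subunit, had sites of 725 bp (chromosome 2, 38643219 to 38643943) and 389 bp. Its counterpart Psmb10 was the exception among immune subunits, with a site of 1429 bp (chromosome 8, 105937111 to 105938539) over the 5′ end and one of 441 bp in coding sequence. Hence in this pair the immune gene had the wider site.

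The number of CpG dinucleotides within 500 bp of the TSS had a median of 59 in the 44 genes with a site and 31 in the 6 without. The ranges overlapped, with 16 to 128 and 16 to 66. Over all protein-coding genes the medians were 63 with a site and 13 without. Psmb10 had a site with 16 CpG dinucleotides within 500 bp of the TSS and no CGI, the same number as Psme2b, which had no site. Psmb9 had no site with 66 CpG dinucleotides and a CGI, more than the median of 59 among the 44 genes with a site. Psmb8 had 44. The following are the 150 bases upstream of the outermost annotated 5′ end in GRCm38, 5′ to 3′, with each CpG in capitals. They are shown for 2 constitutive and immune pairs, for the gene with the narrowest site and for Psmd10. The intervals are chr14:54618023-54618172, minus strand for Psmb5, chr17:34197571-34197720, plus strand for Psmb8, chr2:38644088-38644237, minus strand for Psmb7, chr8:105938445-105938594, minus strand for Psmb10, chr11:70525217-70525366, plus strand for Psmb6 and chrX:140956729-140956878, minus strand for Psmd10.
Psmb5: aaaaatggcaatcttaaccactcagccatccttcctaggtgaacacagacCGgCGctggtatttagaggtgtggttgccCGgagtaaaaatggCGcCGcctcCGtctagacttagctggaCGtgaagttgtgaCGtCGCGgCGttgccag
Psmb8: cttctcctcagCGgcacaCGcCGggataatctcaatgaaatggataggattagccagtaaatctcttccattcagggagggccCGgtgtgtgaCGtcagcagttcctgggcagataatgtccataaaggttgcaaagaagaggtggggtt
Psmb7: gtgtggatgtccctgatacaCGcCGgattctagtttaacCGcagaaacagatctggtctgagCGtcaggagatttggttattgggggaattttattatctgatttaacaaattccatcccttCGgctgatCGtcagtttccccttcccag
Psmb10: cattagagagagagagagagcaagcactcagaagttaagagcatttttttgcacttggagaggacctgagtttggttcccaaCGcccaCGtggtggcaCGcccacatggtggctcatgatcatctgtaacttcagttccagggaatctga
Psmb6: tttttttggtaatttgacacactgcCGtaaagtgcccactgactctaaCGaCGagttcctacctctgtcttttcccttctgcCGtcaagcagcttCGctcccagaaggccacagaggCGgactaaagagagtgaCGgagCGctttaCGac
Psmd10: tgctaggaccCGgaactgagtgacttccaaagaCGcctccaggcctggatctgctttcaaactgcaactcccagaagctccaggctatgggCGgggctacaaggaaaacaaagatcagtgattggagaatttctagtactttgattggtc
The 150 bases contain 11 CpG dinucleotides at Psmb5 and 5 at Psmb8. There are 6 at Psmb7 and 3 at Psmb10, although the latter had the wider site. Psmb6 has 9 and Psmd10 has 3.

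**Figure D3:**
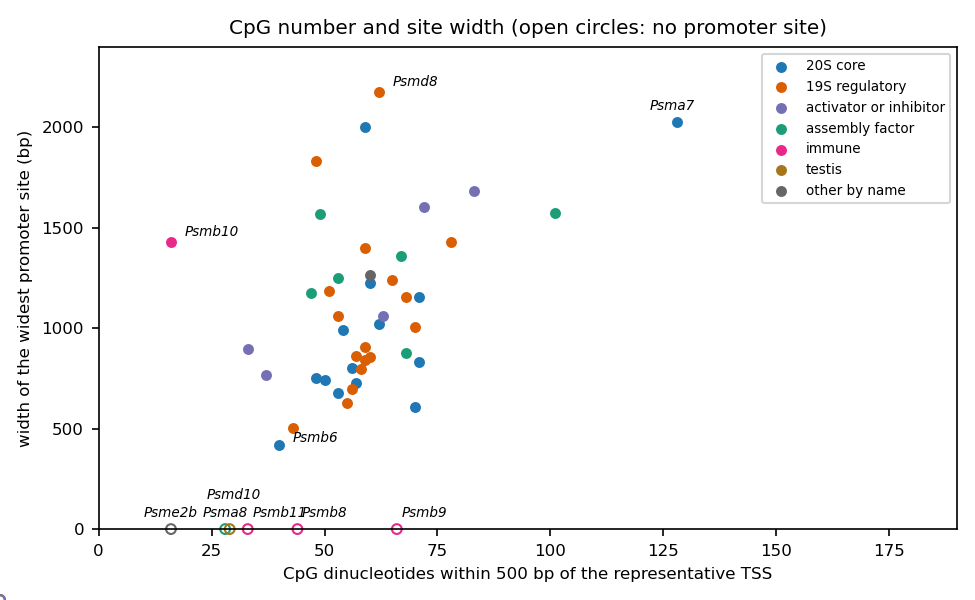
Number of CpG dinucleotides within 500 bp of the representative TSS against the width in bp of the widest promoter site for the 50 genes, coloured by class, with genes without a site as open circles at 0. Psmb10 has a site of 1429 bp with 16 CpG dinucleotides, whereas Psmb9 has none with 66.

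Psmb8 and Psmb9 are neighbours on chromosome 17 within the MHC region, on either side of the peptide transporter gene Tap1. Psmb9 (34181987 to 34187764, minus strand) and Tap1 are transcribed in opposite directions, and their nearest divergent TSSs were 38 bp apart. The representative TSS of Tap1 was at -0.211 kb from that of Psmb9, within the annotated Psmb9 gene. The stretch without a site around them extended from 34124899 to 34437220 (312 kb). It was longer than 99.1% of gaps between neighbouring sites, although a gene without a site is more likely to fall in a long gap. The stretch included the TSSs of 14 protein-coding genes, 5 with a CGI. That 0 of them had a promoter site follows largely from the definition of the stretch as a gap between sites. Among the 14 genes were Tap1, Tap2 and the MHC class II genes H2-Ab1, H2-Aa and H2-Eb1. In the 400 kb on either side of the Psmb9 TSS there were 37 sites, and 22 of 42 protein-coding genes had one.

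**Figure D4:**
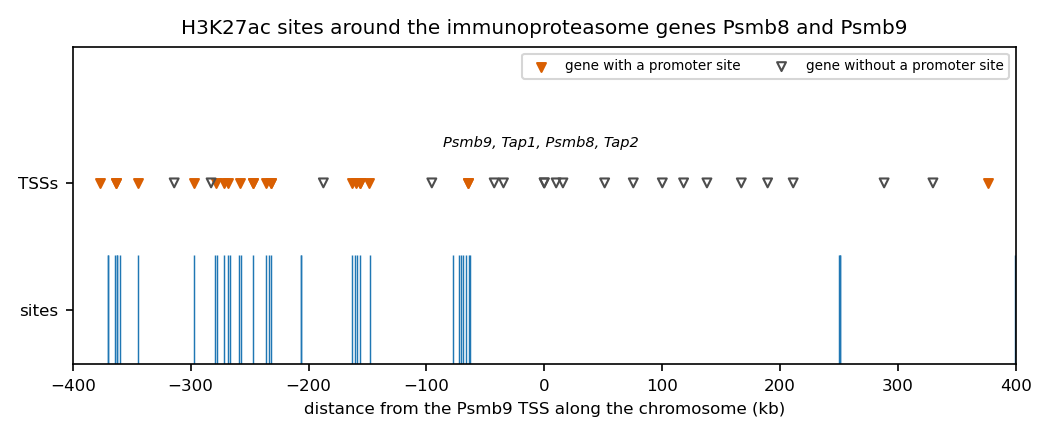
Map of the surroundings of Psmb9 on chromosome 17, with H3K27ac sites as blue lines and TSSs of protein-coding genes as triangles, filled where the gene has a promoter site, against the distance in kb from the Psmb9 TSS. Sites cluster on the left and are missing over the 312 kb around Psmb9, Tap1, Psmb8 and Tap2.

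The gene of the thymus subunit, Psmb11 (chromosome 14, 54621433 to 54629556, plus strand), lies beside Psmb5 on the opposite strand, and 20 sites were within 50 kb of its representative TSS. The nearest site (54619477 to 54620148, 672 bp) was upstream of the first annotated TSS, outside the window, and 5162 bp from the representative TSS. A window of 2 kb took in this site, and a window of 3 kb also the site of 790 bp counted for Psmb5. At Psma8, which encodes the testis counterpart of Psma7, the nearest sites were 22642 bp upstream and 76052 bp downstream, and no CGI was called. Psme2b on chromosome 11 had its nearest sites at 25868 and 27224 bp. Reads that match both Psme2b and Psme2 cannot be followed in a list of sites.

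The next question was where sites lay relative to the TSS. One representative TSS was used for each gene. It was inside a site in 29 of the 44 genes with a site, between a site upstream and a site downstream in 11, downstream of a site in 1 (Psmc2) and upstream of a site in 3 (Psmc4, Psmd6 and Psmd8). Expressed as a share of genes with a site, 65.9% were inside a site, compared to 70.7% of protein-coding genes with a CGI, and 25% were between sites, compared to 15.1%. The gap around the TSS was short in these 11 genes, with a median of 124 bp and a range of 87 bp at Psmg1 to 256 bp at Psmb3. In the 1541 protein-coding genes with a CGI of this kind the median was 168 bp (quartiles 120 and 245 bp). The downstream site was the nearer one in 10 of 11 genes (90.9%), the exception being Psme2, compared to 87.2% of the 1541 genes. The downstream site began at a median of 16 bp from the TSS, compared to 29 bp.

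Sites often began almost exactly at the TSS. In 8 of 14 core genes and 11 of 17 genes of the 19S particle, a site began within 50 bp of it on either side. The share among genes with a site was 57.1% and 64.7%, compared to 33.9% of protein-coding genes with a CGI. At Psmd6, which encodes a lid subunit, the site began 1 bp downstream of the TSS and measured 857 bp. At Psmc6, an ATPase gene, it began 5 bp upstream, and at Psmd7, a partner of the deubiquitinase in the lid, 13 bp upstream.

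At 250 bp downstream of the TSS, 100% of the 14 core genes and 94.1% of the 17 genes of the 19S particle were covered by a site, compared to 73.9% of protein-coding genes with a CGI. Coverage was lower just upstream, with 42.9% and 23.5% at 50 bp, compared to 43.7%. At 250 bp upstream it was 92.9% in the core and 52.9% in the 19S particle, compared to 54.9%. Farther downstream, coverage in the core was 78.6% at 750 bp and 7.14% at 1000 bp, whereas it was 64.7% and 29.4% in the 19S particle and 52.2% and 35.5% in genes with a CGI. The values for genes with a CGI include those without a site, and a single core gene is 7.14% of its class.

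**Figure D5:**
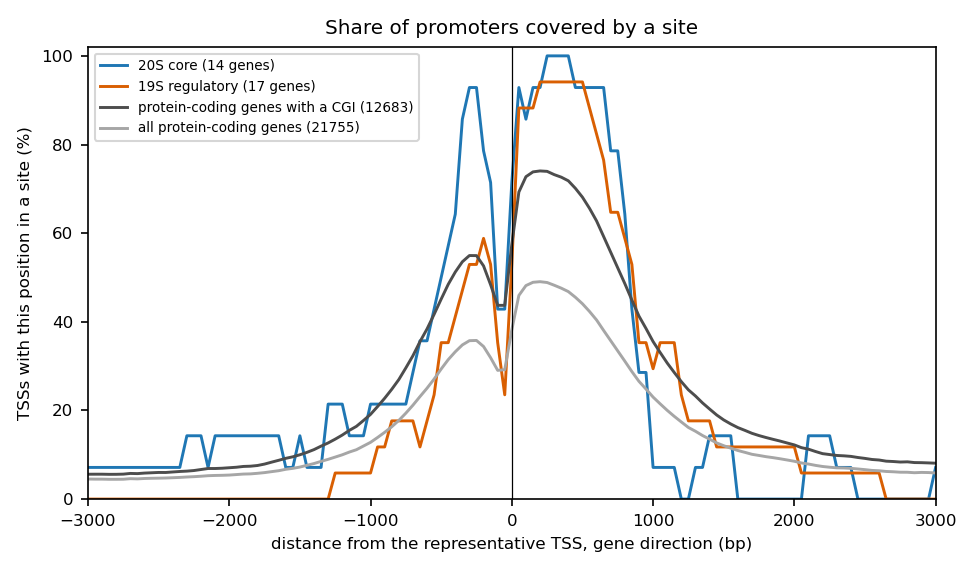
Share in percent of representative TSSs at which a position is inside a site, against the distance from the TSS in bp, for 14 core genes, 17 genes of the 19S particle, protein-coding genes with a CGI and all protein-coding genes. The core curve is highest from 250 to 400 bp downstream, with 100%, and drops to 7.14% at 1000 bp downstream. Upstream it has a lower peak of 92.9% at 250 bp and a dip of 42.9% at 50 bp.

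The sequence in the gap between both sites is shown for 4 genes, from the end of the upstream site to the base before the TSS, with matches to the motifs listed below in capitals. The intervals in GRCm38 are chr7:114276119-114276263, minus strand for Psma1, chr4:126677520-126677629, plus strand for Psmb2, chr2:91053916-91054008, plus strand for Psmc3 and chr2:61711565-61711693, plus strand for Psmd14, and sequences run 5′ to 3′ towards the gene.
Psma1: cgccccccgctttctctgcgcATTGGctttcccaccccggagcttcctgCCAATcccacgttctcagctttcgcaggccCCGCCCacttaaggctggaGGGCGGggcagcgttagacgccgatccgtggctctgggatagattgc
Psmb2: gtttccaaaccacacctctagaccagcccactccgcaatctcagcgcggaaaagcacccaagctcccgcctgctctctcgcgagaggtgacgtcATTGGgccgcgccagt
Psmc3: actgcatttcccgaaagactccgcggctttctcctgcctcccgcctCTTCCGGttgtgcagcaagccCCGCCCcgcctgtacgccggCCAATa
Psmd14: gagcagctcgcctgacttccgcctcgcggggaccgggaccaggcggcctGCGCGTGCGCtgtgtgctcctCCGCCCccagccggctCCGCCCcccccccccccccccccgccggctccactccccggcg
Psma1 has 2 NF-Y and 2 SP/KLF matches and Psmb2 has 1 NF-Y match. Psmc3, where the gap overlaps an exon of the annotated gene Gm13778, has 1 match each for ETS, SP/KLF and NF-Y. Psmd14 has an NRF1 match and 2 SP/KLF matches.

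Motifs were searched on both strands in the 250 bases upstream of the representative TSS, and matches of different motifs were allowed to overlap. A match describes letters only. CCAAT (NF-Y) was found in 8 of 14 core genes, 6 of 17 genes of the 19S particle and 36% of the 50 genes, compared to 35.6% of all protein-coding genes and 35.4% of those with a CGI and a site. CCGGAAG (ETS) was found in 1 of 14 core genes and 6 of 17 genes of the 19S particle. Its share was 24% over the 50 genes, 8.57% over all protein-coding genes and 14.6% over those with a CGI and a site. GGGCGG (SP/KLF) was found in 56%, compared to 41.8% of all protein-coding genes and 63.1% of those with a CGI and a site.

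Other motifs were rarer. GCGCA and GCGC with any base between them (the palindrome of nuclear respiratory factor NRF1) was found in 5 of 50 genes. This was 10%, compared to 4.95% of all protein-coding genes and 9.29% of those with a CGI and a site. TGACNNNGC, the core of the antioxidant response element bound by Nfe2l1 and Nfe2l2, was found in 12%, compared to 10.2% and 11.7%. GAAA and GAAA with any 2 bases between them, the interferon-stimulated response element (ISRE), was found in 5 genes (10%, compared to 3.16% and 2.32%) and in 0 of the 4 immune genes. TTCNNNGAA, the gamma-activated site, was found in 4 genes (8%, compared to 6.89% and 5.30%), including 1 immune gene. TATAAA was found in 5 genes (10%), which was below the share of all protein-coding genes (11.5%) and above that of genes with a CGI and a site (5.70%).

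Several promoters were shared with a neighbour. Of the 50 genes, 12 had a protein-coding gene on the opposite strand with a divergent TSS within 1 kb (24%), compared to 11.1% of all protein-coding genes and 17.3% of those with a CGI. In 10 of the 12 (83.3%) the same site was counted for both genes, compared to 87% of all protein-coding genes with such a neighbour and 90.4% of those that also have a CGI. Distances are those between the nearest divergent TSSs of a pair. The closest of these pairs was Psmc2 and the chaperone gene Dnajc2, with 32 bp between TSSs. Psma2 and Mrpl32, of the mitochondrial ribosome, were 75 bp apart, as were Psmc5 and Ftsj3. Psma7 and Ss18l1 were 76 bp apart, and Psmd13 and the mitochondrial deacetylase gene Sirt3 99 bp apart. In the 2 pairs without a shared site, Psmb9 with Tap1 and Psmd10 with Atg4a, neither gene had a promoter site.

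Factors that act with the proteasome were considered as lists, in which most genes had a CGI. For comparison, 54.7% of all protein-coding genes and 80.4% of those with a CGI had a promoter site, with a median width of 1204 bp in the latter. For further subunits, assembly and shuttle factors, 18 symbols were listed and 15 matched a protein-coding gene considered here. All 15 had a promoter site, with a median width of 1260 bp, and 14 did when sites less than 1 kb apart were merged. They included Pomp, the maturation factor of the core (1939 bp), Adrm1, a ubiquitin receptor (1676 bp), and Ecpas, an adaptor, which was widest with 2103 bp. All 5 genes for the regulation of proteasome genes had a site, and 4 did with merged sites. The site of Nfe2l1, of the transcription factor that raises proteasome gene expression when activity is low, measured 8778 bp, at the 99.9th percentile of protein-coding genes with a site. Nfe2l2, Ddi2, Vcp and Ngly1 had between 1037 and 1318 bp.

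All 5 ubiquitin and activation genes had a site, with a median width of 1649 bp, but 3 of 5 did when sites less than 1 kb apart were merged. With merged sites the share over all protein-coding genes was 50.7%, in place of 54.7%. All 5 genes of the ligase recruited by dTAG had a site, also with merged sites, but 4 did with 1 TSS per gene. At Cul4b no site edge was within 1 kb of the representative TSS. Crbn, which encodes Cereblon, had a site of 620 bp, Ddb1 1395 bp, Cul4a 1216 bp, Cul4b 1408 bp and Rbx1 988 bp. In antigen presentation, 4 of 7 genes had a site, and 3 did with merged sites. Tapbp had the widest (1650 bp), B2m had 1342 bp, and Irf1, which responds to interferon, had 901 bp. Tap1, Tap2 and the MHC class I regulator Nlrc5 had none.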

How the data were processed

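H3K27ac ChIP-seq libraries of iMEF cells were analysed through a single deposited list. The authors used Trim Galore for trimming and BWA for alignment to mm10 (GRCm38.p6), filtered reads as ENCODE recommends, merged replicates with Picard, called narrow peaks with MACS and joined the peaks of all samples. The threshold and the way of joining were not given in the sources used here. The deposited values are positions in base pairs, read with starts counted from 0 and printed from 1, so that the narrowest site is 200 bp. A joined width may exceed that of any sample.

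Genes and TSSs came from GENCODE release M21, and sequence from GRCm38.p6. The authors used release M25. CGIs were runs of CpG in the repeat-masked sequence (score 17 per CpG, -1 otherwise) of at least 200 bp, 50% GC and an observed to expected ratio of 0.6, which gave 16114. The representative TSS was that of the transcript with the best APPRIS tag, then the best support level, then the outermost. Named genes were all those matching the symbol, members of the lists without a site, and the widest of each list. Other list members with a value were added after values were seen, and 2 list members are not reported here by name. Members and lists were chosen with earlier results of these data known. The code was tested on simulated sites. Python 3.11.15, numpy 2.4.6, pandas 2.3.3, scipy 1.17.1, numba 0.67.0, pysam 0.24.0 and matplotlib 3.10.9 were used.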

Additional observations from a re-analysis of the deposited data

How the results depend on the processing

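Of 179 alternative values, 165 were within 1.5-fold of the value reported and 14 were not. The number of proteasome genes with a promoter site stayed between 43 and 45. For immune genes it was 2 in place of 1 with a window of 2 kb and 2 with 3 kb. When sites less than 1 kb apart were merged, the median width was 1387 bp in place of 818 bp in the core and 1604 bp in place of 1061 bp among activators and inhibitor. With every promoter site counted once, the median of the immune genes was 935 bp in place of 1429 bp. Both values come from Psmb10 alone, the only immune gene with a site. With CGIs of at least 500 bp, 22 in place of 42 genes had a CGI. The other 8 were counts of 6 motifs within 100 bases upstream, of ubiquitin genes with a site when sites were merged (3 in place of 5) and of other cell type markers with 1 TSS per gene (0 in place of 1). No paired analysis was possible because sites came without sample values, and for the same reason no library could be left out.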

Other observations

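The 19S lid, the COP9 signalosome and the translation initiation factor eIF3 are related complexes with subunits of common ancestry. Of 10 COP9 signalosome genes, 10 had a promoter site, with a median width of 1134.5 bp and the widest at Gps1 (1870 bp). Of 14 eIF3 genes, 14 had one, with a median of 1399.5 bp and the widest at Eif3d (2625 bp). The narrowest eIF3 site was that of Eif3j2 with 400 bp. The counts of 10 and 14 genes were unchanged when sites less than 1 kb apart were merged. However, a CGI was present at 9 of the 10 COP9 signalosome genes and at all 14 eIF3 genes. Where a CGI was present, 80.4% of protein-coding genes carried such a site, and their widest sites had a median of 1204 bp. Whether these complexes differ from other genes with a CGI was not tested.

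Some promoter sites of proteasome genes were far from the representative TSS, at other annotated TSSs. At Psmd1, of a scaffold subunit, a site of 1026 bp (chromosome 1, 86110431 to 86111456) began 45812 bp downstream and was shared with Htr2b, a serotonin receptor gene transcribed in the opposite direction. At Psmc3, a site of 269 bp in an intron began 4463 bp downstream. At Psmd9, the site of 1250 bp began at -58579 bp relative to the representative TSS and did not overlap a CGI.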
